A study of Mus musculus with 44 samples.

Results

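CTCF peaks of the *Dlk1*-*Dio3* imprinted domain were examined in *Setdb1* KO and WT mouse embryonic stem cells (ESCs). The members were chosen by position: every peak whose summit lay on chromosome 12 of mm10 (GRCm38) from 100 kb before *Dlk1* to 100 kb after *Dio3*, chr12:109352823-110381097, a window of 1028.3 kb. After overlapping peaks of both lists were joined, 33 of 61018 CTCF regions were in the window, with 33 of 59698 peaks of the *Setdb1* KO list and 25 of 44241 peaks of the WT list. A peak is on a list because its own enrichment passed the threshold of the peak caller, so the values of listed peaks are given as a description and without a test.

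The domain holds genes that are expressed from 1 parental chromosome. *Dlk1* (a transmembrane ligand related to Notch ligands), *Rtl1* (a retrotransposon-derived gene needed in the placenta) and *Dio3* (the deiodinase that inactivates thyroid hormone) are protein-coding and expressed from the paternal chromosome, while the noncoding RNAs *Meg3*, *Rian* (a host of snoRNAs) and *Mirg* (a host of microRNAs) are expressed from the maternal chromosome. Both patterns depend on a control region between *Dlk1* and *Meg3*, which is methylated on the paternal chromosome, and the *Meg3* promoter acquires the same methylation later in development. CTCF is a zinc finger protein of insulators and loop anchors, and methylation of a CpG inside its motif can lower its binding. SETDB1 deposits H3K9me3, and ZFP57, which binds methylated TGCCGC in imprinted control regions, brings KAP-1 and SETDB1 to them.

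The cells were TT2 ESCs (C57BL/6/CBA F1, clone 33#6), so both groups come from 1 clone. In *Setdb1* KO cells the conditional gene was deleted with 800 nM 4-OHT for 4 days, with harvest on day 6. The other group is labelled WT, and 4-OHT is given only for the KO. Of 44 samples, 1 CTCF ChIP-seq library per condition (Active Motif antibody) had a peak list used here, hence there is no replicate error and all differences below compare these libraries, not the conditions. Depth was alike, at 27.6 M tags in the *Setdb1* KO library and 27.4 M in the WT library. The lists do not separate parental chromosomes, so that more binding on 1 chromosome, binding on both, and binding in more cells cannot be told apart. They also hold no measure of the loss of *Setdb1* itself.

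Sequences at CTCF sites of the *Meg3* promoter, the *Meg3* body and other parts of the domain are printed first. Whether binding depends on them was not tested. The sequences are GRCm38.p6 reference sequences from RefSeq (the C57BL/6J genome, not the CBA chromosome), written 5′ to 3′ on the strand of the motif. Capitals mark the 14-base core of the best CTCF motif within 50 bp of the summit. The first site was on the *Setdb1* KO list alone, in an annotated *Meg3* exon (chr12:109542126-109542226, + strand). The second was on both lists, also in an annotated *Meg3* exon (chr12:109542994-109543094, - strand). The third was on the *Setdb1* KO list alone, in an exon farther along *Meg3* (chr12:109566775-109566825, + strand). The fourth was the highest *Setdb1* KO peak of the domain, upstream of *Dlk1* (chr12:109437888-109437938, + strand), and the fifth was an intronic site of *Rian* (chr12:109612753-109612803, + strand).
Meg3 KO-only site: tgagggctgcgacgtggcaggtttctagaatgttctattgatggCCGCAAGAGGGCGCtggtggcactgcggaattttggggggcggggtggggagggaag
Meg3 shared site: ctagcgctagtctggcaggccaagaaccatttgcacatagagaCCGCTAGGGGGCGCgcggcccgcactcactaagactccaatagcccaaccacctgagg
Meg3 body KO-only site: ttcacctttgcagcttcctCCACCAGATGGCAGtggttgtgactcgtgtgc
Dlk1 upstream shared site: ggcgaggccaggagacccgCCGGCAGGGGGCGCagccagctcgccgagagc
Rian shared site: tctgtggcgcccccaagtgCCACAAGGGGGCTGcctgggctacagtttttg

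The first and second sites lie 862 bp apart and face each other, and their cores are the same at 12 of 14 positions. Counted from 1 at the 5′ end of the core, with the KO-only site first, they differ by A5T and A8G. Both cores hold a CpG at position 2 and a CpG at position 12, as does the core upstream of *Dlk1*. Thus 3 of the domain's 20 motifs (15.0%) had both, beside 2.54% of 34117 motifs over the whole *Setdb1* KO list. A CpG at position 12, with or without one at position 2, was in 9 of the 20 (45.0%), beside 36.3% of that list's motifs. Neither difference was tested. The cores in the *Meg3* body and *Rian* hold neither.

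**Figure D1:**
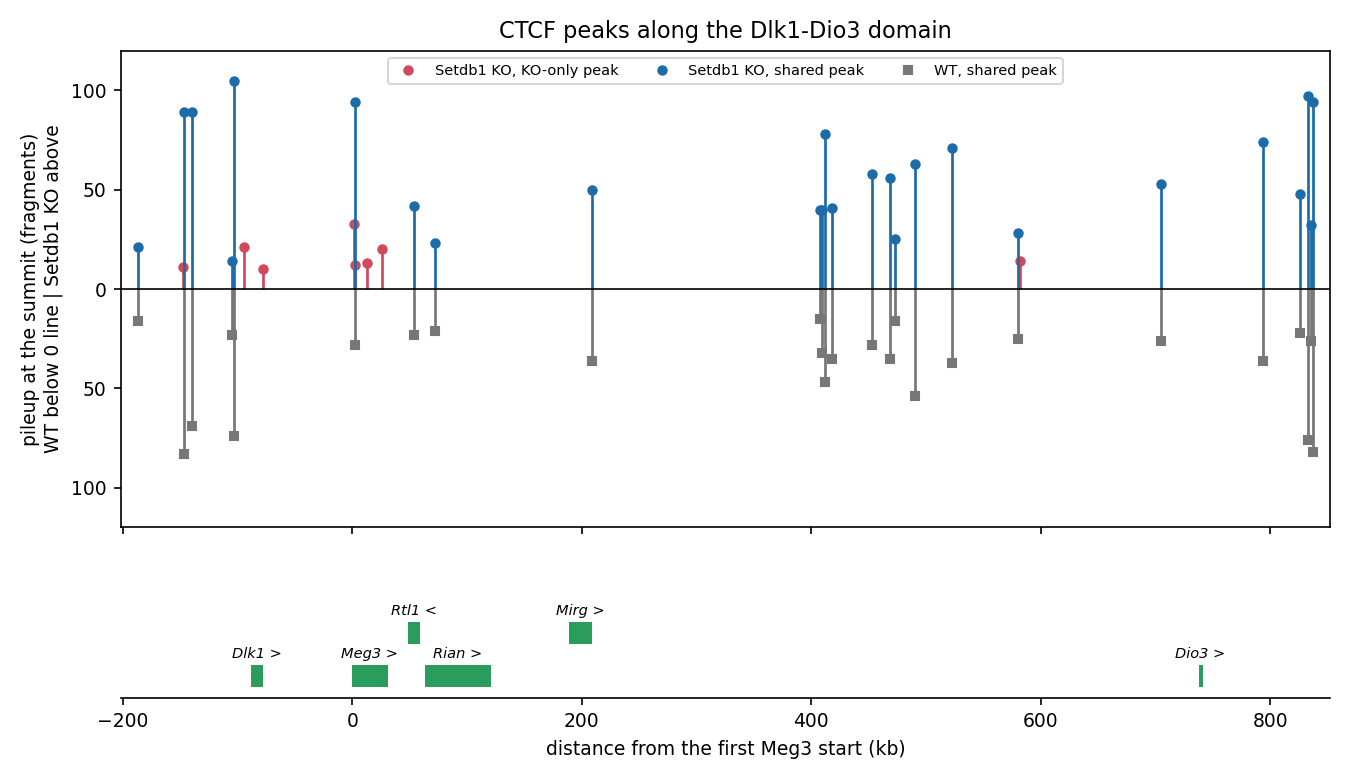
CTCF peaks of the domain by distance of the summit from the first *Meg3* start (kb, x axis), with the solved pileup in fragments for *Setdb1* KO above the 0 line and WT below it (y axis). Red circles are KO-only peaks, blue circles and grey squares are the 2 values of a shared peak, and green boxes are the 6 genes with their direction. Of the 8 KO-only peaks, 4 are inside *Meg3*, and no peak of either list lies between *Dlk1* and *Meg3*.

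All 25 WT peaks of the domain overlapped a *Setdb1* KO peak by at least 1 bp, and 8 of 33 *Setdb1* KO peaks had no overlapping WT peak (24.2%, Wilson 95% interval 12.8 to 41.0%). Over the whole *Setdb1* KO list this share was 28.8%, which lies inside that interval. WT-only peaks numbered 0 of 25, which allows a share of up to 12% (3 counts of 25), beside 3.22% over the whole WT list. In the 1 Mb on each side of the domain, 32 of 90 *Setdb1* KO peaks were KO-only (35.6%, 26.4 to 45.8%) and 0 of 60 WT peaks were WT-only.

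On the *Dlk1* side, up to the end of *Mirg*, 7 of 15 *Setdb1* KO peaks were KO-only (46.7%, 24.8 to 69.9%), and after the end of *Mirg* 1 of 18 was (5.56%, 0.988 to 25.8%). These intervals overlap only from 24.8 to 25.8%, and such overlap does not measure the difference, which was not tested. The first includes the whole-list share of 28.8%, and the second lies below it. Both intervals treat the peaks as independent, and the split at the end of *Mirg* was not among the planned results. *Meg3* alone, 30.7 kb long, held 4 of the 8. The pileups of the 8, the number of fragments stacked at the summit, ran from 10 to 33 with a median of 13.5, against 18 over all 17209 KO-only peaks of the list. Solved from the deposited fold enrichment and p, a pileup of 9 was needed for a WT peak at the genome-wide WT background of 2.1, and 8 for a *Setdb1* KO peak at 2.19. At that background a site off the WT list may still have held up to 8 fragments. Divided by 1.36, the median ratio of all 41869 sites that pair 1 peak of each list, 4 of the 8 pileups reached the level a WT peak needed at the *Setdb1* KO background of the site, beside 83.3% of all KO-only peaks. These 4 were at -94.75, 1.17, 12.84 and 25.82 kb from the first *Meg3* start, and the other 4 did not reach it. One of these depends on the background used. The peak at 581.93 kb, at 10.3 after division, fell short of the 14 needed at its *Setdb1* KO background but not of the 9 needed at the genome-wide WT background. With a -log10 q minimum of 5 in each list, 3 KO-only peaks remained, at -94.75, 1.17 and 25.82 kb.

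At the *Meg3* promoter, taken as within 1 kb of any of its 11 annotated starts (GENCODE vM21), the *Setdb1* KO list held 3 peaks and the WT list held 1. The pileup of the shared site, chr12:109542789-109543215 in *Setdb1* KO with its summit 2.03 kb downstream of the first start, was 94 in *Setdb1* KO cells and 28 in WT cells. This is 3.36 times as high in *Setdb1* KO (exact Clopper-Pearson 95% interval 2.18 to 5.32, counting error only). The authors' fold enrichment was 29.8 in *Setdb1* KO and 7.93 in WT. The local background was slightly lower in *Setdb1* KO, at 2.19 against 2.65 in WT, and the peak was 427 bp long in *Setdb1* KO and 245 bp in WT.

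This was the highest ratio of the 25 shared sites of the domain. Of all 41869 paired sites, 315 (0.752%) had a ratio at least as high. Among the 3896 sites whose WT pileup was within 10% of 28, the median ratio was 1.44 and 22 sites were as high. The *Setdb1* KO pileup of 94 ranked 5708 of 59698 on the *Setdb1* KO list, whereas the WT pileup of 28 was below the WT median of 37.

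The highest KO-only peak of the domain lay next to it, at chr12:109541957-109542444, with a pileup of 33 in *Setdb1* KO and no WT peak. The nearest WT peak was 516 bp away, at the shared site. The summit was 1.17 kb downstream of the first *Meg3* start and 99 bp from an alternative start. At the genome-wide background a WT site could have held up to 8 fragments without being listed, and the WT background at the shared site was higher, 2.65. The WT pileup at the KO-only peak is not known, so no ratio is given. Among all KO-only peaks of the list 1315 (7.64%) had a pileup of at least 33. The third *Setdb1* KO peak of the promoter, at chr12:109543608-109543800, was weak, with a pileup of 12 in *Setdb1* KO, no WT peak and no CTCF motif. Its nearest WT peak was 404 bp away, again the shared site, so that neither KO-only peak here was more than 1 kb from a WT peak. The small RNA genes *Mir1906-1* and *Gm27300* start within 1 kb of the weak peak.

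No peak touched either of the narrower RefSeq promoters of *Meg3*, which end shortly after the start. The same was so for the RefSeq promoters of *Dlk1*, *Rian*, *Mirg* and *Dio3*, and *Rtl1* was not matched. All 3 *Setdb1* KO peaks at the *Meg3* promoter had their summits downstream of the first start, in annotated exons of *Meg3*.

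**Figure D2:**
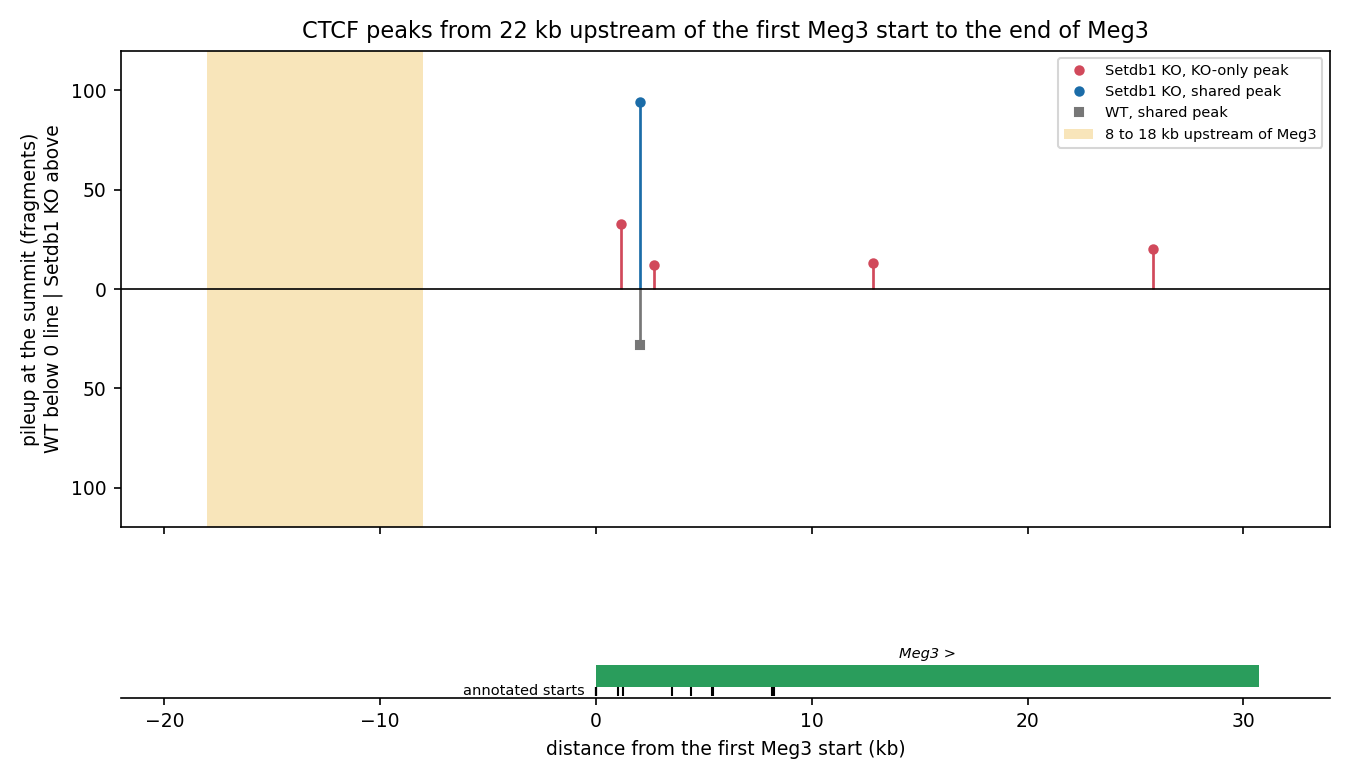
Pileup in fragments (y axis, *Setdb1* KO above the 0 line, WT below) from 22 kb upstream of the first *Meg3* start to the end of *Meg3* (x axis, kb), with KO-only peaks in red, the shared peak in blue and grey, and annotated *Meg3* starts as ticks. The shared site has 94 fragments in *Setdb1* KO cells and 28 in WT cells, 4 KO-only peaks are inside *Meg3*, and the shaded stretch 8 to 18 kb upstream has no peak.

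Within the body of *Meg3*, 2 further peaks were on the *Setdb1* KO list alone. The exonic peak, chr12:109566718-109566967, had a pileup of 20 in *Setdb1* KO, and its nearest WT peak was 23514 bp away. It is the third sequence above. The intronic peak, chr12:109553784-109553976, had a pileup of 13 in *Setdb1* KO, and its best motif score was under the threshold. For both, the local background was 2.19, the genome-wide value of the *Setdb1* KO list.

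The stretch upstream of *Meg3* that holds the control region, taken as 8 to 18 kb before the first start from general knowledge of the locus and not from a file, had 0 peaks in *Setdb1* KO cells and 0 in WT cells. The stretch lies in a longer gap between CTCF summits, of 78.9 kb in *Setdb1* KO and 105 kb in WT. Gaps at least as long made up 13.4% of all gaps in *Setdb1* KO and 13% in WT. Of the stretch, 12.1% was repeat-masked, against 33.4% of chromosome 12. The authors kept reads that aligned to 1 place, and how uniquely reads align in the stretch was not measured. The stretch had 188 CpGs, or 18.8 per kb, against 8.18 per kb over the chromosome, and no CTCF motif.

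TGCCGC, searched on both strands, occurred 10 times in the stretch. At least 1 match was present in 38.8% of the 11687 tiles of chromosome 12 of that length, and 3 tiles (0.0257%) had 10 or more. A run of 5 matches is printed because it sits in this stretch, where neither list held a CTCF peak. It starts at -12.71 kb from the first *Meg3* start (chr12:109528286-109528454, + strand), and capitals mark the matches.
TGCCGC run upstream of Meg3: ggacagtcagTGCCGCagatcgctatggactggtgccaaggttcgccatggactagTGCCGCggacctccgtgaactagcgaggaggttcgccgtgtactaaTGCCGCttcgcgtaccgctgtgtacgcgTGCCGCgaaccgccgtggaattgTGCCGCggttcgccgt

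Around the CTCF summits the same letters were seldom found. Within 100 bp of the summit, 1 of 33 *Setdb1* KO peaks of the domain held TGCCGC (3.03%), a shared site at 417.94 kb, beside 3.64% of the whole *Setdb1* KO list and 2.05% of control windows 1 kb away. None of the *Meg3* peaks held it. The first RefSeq *Meg3* promoter held 1 match, as 11.6% of 32851 RefSeq promoters held at least 1. Neither binding of ZFP57 nor methylation was measured in these lists.

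*Dlk1* had no CTCF peak at its promoter in either list. Before its first start the nearest summit was 6.57 kb upstream in *Setdb1* KO, a KO-only peak at chr12:109446166-109446376 with a pileup of 21 and no motif, and 14.9 kb upstream in WT. A weak KO-only peak with a pileup of 10 in *Setdb1* KO, 2 above the lowest that could be listed, lay in an exon of *Dlk1*, in a part annotated as untranslated and 3442 bp from the nearest of the 9 *Dlk1* starts (chr12:109463152-109463377). In the 100 kb before *Dlk1* the *Setdb1* KO list held 7 peaks and the WT list 5. The summed pileup of the 5 shared sites was 318 in *Setdb1* KO cells and 265 in WT cells, which is 1.2 times as high (1.02 to 1.42). At 3 of these sites, at -186.53, -147.0 and -139.6 kb, the ratio ran from 1.07 to 1.31. The strongest, at -103.07 kb, had 105 fragments in *Setdb1* KO cells and 74 in WT cells. Its neighbour at -104.59 kb was the only shared site of the domain with the lower pileup in *Setdb1* KO, 14 against 23 in WT, with an interval that includes 1 (ratio 0.609, 0.290 to 1.23). A pileup lower in *Setdb1* KO was found at 1 of 25 paired sites of the domain (4.00%), beside 7.41% of all paired sites. A ratio as low as 0.609 was rare, as 41821 of all 41869 paired sites had a ratio at least as high. Among the 4562 sites whose WT pileup was within 10% of 23, this held for 4549, and the median ratio was 1.46. The *Setdb1* KO and WT summits of the site at -104.59 kb were 87 bp apart. A CTCF motif was called at its *Setdb1* KO summit but not at its WT summit. The seventh peak, at -147.76 kb, was KO-only, with a pileup of 11 and a WT peak 483 bp away.

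*Rtl1* and *Rian* had 1 shared site each, and *Mirg* had none within it. In the exon of *Rtl1*, where *Mir432*, *Mir136*, *Mir434* and *Mir3071* are annotated, the pileup was 42 in *Setdb1* KO cells and 23 in WT cells (ratio 1.83, 1.07 to 3.18). No CTCF motif passed the threshold there. In the intron of *Rian* the values were nearly equal, at 23 in *Setdb1* KO cells and 21 in WT cells (ratio 1.1, 0.580 to 2.08). The summit was 936 bp from the annotated start of *Mir1188*. The site 2212 bp from the nearest *Mirg* start and beyond the end of the gene had 50 fragments in *Setdb1* KO cells and 36 in WT cells (ratio 1.39, 0.887 to 2.19). The summits on either side of it lay far off in both lists, 137 kb away in *Rian* and 199 kb away towards *Dio3*. Of the 67 microRNA genes annotated in the window, 6 were within 1 kb of a *Setdb1* KO summit and 5 within 1 kb of a WT summit. These genes are not separate cases, as *Mir432*, *Mir136*, *Mir434* and *Mir3071* all lie at the single *Rtl1* site. The 23 snoRNA genes, which lie together at chr12:109631074-109689544, had none. The shares over all microRNA and snoRNA genes were not computed, so whether these counts are high or low is not known.

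*Dio3* had no peak inside it or at its promoter, with the nearest summit 33.5 kb away in *Setdb1* KO and 33.4 kb away in WT. The 529.6 kb between *Mirg* and *Dio3* held 13 peaks in *Setdb1* KO cells and 12 in WT cells, and the 100 kb after *Dio3* held 5 in each list. The KO-only peak between *Mirg* and *Dio3*, at 581.93 kb, had a pileup of 14 over a local background of 4.83, which made it the peak of the domain with the lowest fold enrichment, 2.57. The summed pileup of the shared sites between *Mirg* and *Dio3* was 603 in *Setdb1* KO cells and 386 in WT cells (ratio 1.56, 1.37 to 1.78), and after *Dio3* it was 345 in *Setdb1* KO cells and 242 in WT cells (1.43, 1.21 to 1.69). At 407.92 kb the ratio was the second highest of the domain, with 40 fragments in *Setdb1* KO cells and 15 in WT cells (2.67, 1.44 to 5.2), and again no motif passed the threshold. A site at 793.84 kb had 74 in *Setdb1* KO cells and 36 in WT cells (2.06, 1.36 to 3.15), and a site at 826.28 kb had 48 in *Setdb1* KO cells and 22 in WT cells (2.18, 1.29 to 3.80). Thus the sites with the higher ratios were not confined to genes. The introns of *Gm34667*, an uncharacterised gene of this interval, held 3 shared sites, with 58, 56 and 25 fragments in *Setdb1* KO and 28, 35 and 16 in WT. An intronic site of *Gm34719*, also uncharacterised, had 71 in *Setdb1* KO cells and 37 in WT cells. The remaining sites between *Mirg* and *Dio3* had ratios of 1.12 to 2.04, and those after *Dio3* of 1.15 to 1.28.

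**Figure D3:**
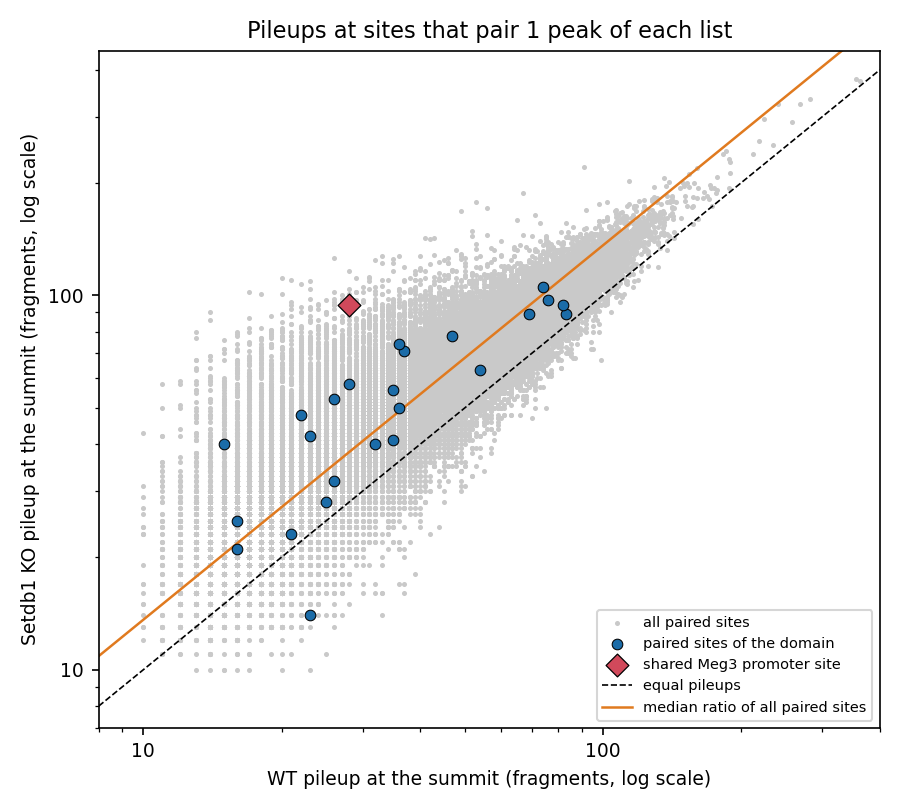
*Setdb1* KO pileup (y axis) against WT pileup (x axis) at the summit, in fragments on log scales, for 41869 sites that pair 1 peak of each list (grey), the 25 of the domain (blue) and the shared *Meg3* promoter site (red diamond). The dashed line marks equal pileups and the orange line the median ratio of 1.36. The *Meg3* site, at 94 in *Setdb1* KO cells and 28 in WT cells, is the domain's point farthest above the orange line, and 24 of the 25 domain sites are above the dashed line.

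Over the 25 shared sites the summed pileup was 1425 in *Setdb1* KO cells and 965 in WT cells, or 1.48 times as high (1.36 to 1.60). This ratio was 1.38 (1.37 to 1.38) over the whole series and 1.34 (1.27 to 1.41) in the 1 Mb on each side. The median of the single ratios was 1.39, beside 1.36 over all paired sites. Thus 24 of 25 sites were higher in *Setdb1* KO, but relative to the median of all sites 13 were above and 12 below. The *Setdb1* KO pileup was at least 2 times the WT pileup at 6 of 25 sites (24.0%, 11.5 to 43.4%), beside 9.39% of all paired sites and 5 of 56 in the 1 Mb on each side (8.93%). These shares are not matched for the WT pileup, which had a median of 32 in the domain and 37 over the whole WT list. Of the 6 sites, 5 lay between *Mirg* and the end of the window. The intervals of 3 sites were wholly above 1.36, those at 2.03, 407.92 and 793.84 kb, and that of 1 was wholly below, at -104.59 kb. Among sites of a similar WT pileup (within 10%) the median ratio was 1.44 for the first, 1.57 for the second and 1.42 for the third. The interval of the *Meg3* site lay above its value, and those of the other 2 sites included theirs.

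**Figure D4:**
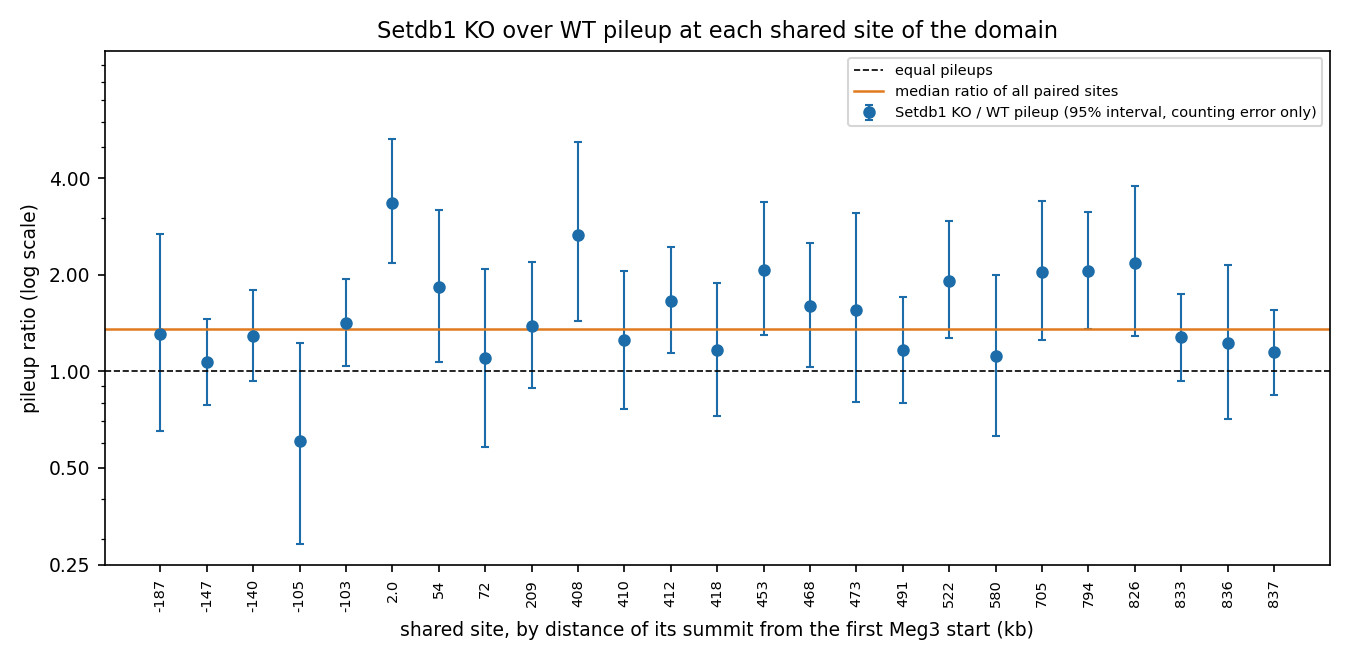
Ratio of the *Setdb1* KO to the WT pileup (y axis, log scale) at each of the 25 shared sites, in order of distance from the first *Meg3* start (x axis, kb). Bars are exact 95% intervals for counting error, the dashed line is 1 and the orange line the median of all paired sites, 1.36. The *Meg3* site has the highest ratio, 3.36, and the site at -104.59 kb is the only one below 1, at 0.609.

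A CTCF motif was present within 50 bp of the summit at 20 of 33 *Setdb1* KO peaks (60.6%, 43.7 to 75.3%), beside 57.1% of the whole list. It was found at 18 of 25 shared peaks (72.0%) and 2 of 8 KO-only peaks (25%, 7.15 to 59.1%), beside 65.5% of the shared and 36.5% of the KO-only peaks of the whole list. The window held 59 motif matches in all, and 20 of them had a *Setdb1* KO summit within 50 bp and 18 a WT summit. Of the 10 matches that scored at least 19 bits, 9 had a *Setdb1* KO summit, and of the 49 that scored lower, 11 had one. The cut of 19 bits is not one of the thresholds used to call a motif. The matrix was learned from the strongest shared peaks, so the score itself favours bound sites. The same shares were not computed over the genome. Along the domain 12 motifs were on the + strand and 8 on the - strand, beside 17090 and 17027 over the whole *Setdb1* KO list. Of the neighbouring pairs, 8 were on 1 strand, 6 faced apart and 5 faced each other, and this order was not tested. The *Meg3* pair was one of the 5 that faced each other, and its members were 1 KO-only and 1 shared site.

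The repeat-masked share was scored within 50 bp of each summit. Of the 8 KO-only peaks, none had more than 50% repeat-masked sequence there, beside 41.4% of all KO-only peaks, and 0 of 8 allows a share of up to 37.5% (3 counts of 8). This was not particular to KO-only peaks. Up to the end of *Mirg*, where 7 of the 8 lie, 0 of 15 *Setdb1* KO peaks, shared or KO-only, had more than 50%. The shared sites with more than 50% repeat-masked sequence numbered 8 of 25, all after *Mirg*. The highest KO-only site, at *Meg3*, was 41.6% repeat-masked, and the shared *Meg3* site had no repeat-masked base.

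The window was fixed by distance, and the peaks at its edges were as follows. On the *Dlk1* side the first peak inside had 21 fragments in *Setdb1* KO cells and 16 in WT cells, and the last outside had 45 in *Setdb1* KO cells and 33 in WT cells. On the *Dio3* side the last inside had 94 in *Setdb1* KO cells and 82 in WT cells, and the first outside had 94 in *Setdb1* KO cells and 77 in WT cells.

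Promoters of 26 other imprinted genes were set beside *Meg3* by the same rule, within 1 kb of an annotated start. A *Setdb1* KO peak was present at 11 of them (42.3%) and a KO-only peak at 6 (23.1%), beside 14.2% and 4.19% of 55450 annotated genes. These shares are not matched for the number of starts, which had a median of 5 in the imprinted genes (1 to 16) and 1 in all genes. *Peg10* and *Sgce* shared 1 peak, so the 11 genes had 14 distinct *Setdb1* KO peaks, and the KO-only peaks were 6 distinct peaks. The 6 genes were *Mest*, *Gnas*, *Nespas*, *Zrsr1*, *Inpp5f* and *H13*. At each, 1 peak was KO-only. Paired sites were present only at *Zim1*, *Mest*, *Gnas*, *Peg10*, *Sgce*, *Grb10*, *Nnat* and *H13*. The ratio of their pileups, summed over 2 sites at *Mest*, ran from 0.932 (*Grb10*) to 1.58 (*Nnat*), all lower than the 3.36 of *Meg3*. The other imprinted promoters had no paired site to compare. *Nespas* (an antisense transcript of the *Gnas* locus), *Zrsr1* (a retrogene with an imprinted promoter) and *Inpp5f* had a KO-only peak and no WT peak, with highest *Setdb1* KO pileups of 21, 15 and 20.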

How the data were processed

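CTCF ChIP-seq peak lists of *Setdb1* KO and WT ESCs, 1 library each, were analysed; second CTCF libraries, other assays and other lines were not analysed here. Per the methods and the submitters' processing notes, the authors used Bowtie 1.2 on mm10 (GRCm38), keeping reads with 1 alignment, then Picard against duplicates and MACS2 2.1.0 (-q 0.05) with an input library. The deposited lists give the authors' fold enrichment (a ratio with a pseudocount of 1), p and q as -log10 values, a score of 10 times -log10 q, and the summit offset.

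Pileup and local background are the pair of values that give a peak's fold enrichment and Poisson p, within 0.001 on -log10 p, for 100% of WT and 99.99% of *Setdb1* KO peaks. The 27.6 M and 27.4 M tags of the *Setdb1* KO and WT libraries follow from the background, the fragment length and the stated genome size. Peaks overlapping by 1 bp were shared. Intervals are 95% exact Clopper-Pearson (ratios) or Wilson (shares), with 3 counts as the limit for a count of 0, and cover counting error only; with 1 library per condition no test was run.

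The CTCF matrix was learned from the 1000 shared peaks with the highest -log10 q, and a motif was called above the 99th percentile of windows 1 kb to the left. Genes are from GENCODE vM21, sequences from RefSeq GRCm38.p6. Scripts ran on scipy 1.17.1, matplotlib 3.10.9, pysam 0.24.0, pandas 2.3.3, numpy 2.4.6 and Python 3.11.15, and were tested on simulated data.

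Every peak of the window was covered, some only within a range of ratios. Named were the 6 genes and other genes with a summit in them or at their promoter. Of 26 other imprinted genes, those with a KO-only peak or a paired site at the promoter were named. These members and lists were chosen with earlier results of these data known, and the sites described at length after their values were seen. Alternatives were other overlap rules, q thresholds, list lengths, windows, scalings and motif thresholds.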

Additional observations from a re-analysis of the deposited data

How the results depend on the processing

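The count of 8 KO-only peaks fell to 5 where no WT peak could lie within 1 kb, to 3 with a -log10 q minimum of 5 and to 3 with lists of equal length by -log10 q. The count of 0 WT-only peaks became 2 with a reciprocal overlap of 50% and 2 with lists of equal length. The count of 25 shared peaks fell to 15 without flanks. The ratio of summed pileups, 1.48, became 1.09 when *Setdb1* KO pileups were divided by the median ratio of all paired sites, and 1.66 without flanks. The share of *Setdb1* KO peaks with a motif, 60.6%, became 24.2% at a score that 1 in 1000 control windows reach. At the *Meg3* promoter, within 500 bp of a start 1 of 3 *Setdb1* KO peaks and 0 of 1 WT peaks remained, and 0 of 2 KO-only peaks had no WT peak within 1 kb. The other 27 values of these results stayed within 1.5 times the count or within the interval, among them 0 peaks in the stretch upstream of *Meg3* in both lists, at 5 to 20 kb and at 1 to 30 kb. No paired analysis was possible because 1 CTCF library per condition had a peak list. With 1 library each, replicate spread is unknown, and sites under 9 fragments in WT could not be listed at the genome-wide background.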
